A study of Mus musculus with 32 samples.

Results

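The comparison described here is that of *Mtm1* KO with WT tibialis anterior (TA) muscle of mice at 21 days of age (P21), by RNA sequencing of 8 of the 32 libraries of the series. The 8 libraries are those labelled as day 21, n=4 WT and n=4 KO, and no measured value was used to choose them. *Mtm1*, on the X chromosome, encodes myotubularin, a phosphatase that acts on phosphoinositide lipids of endosomes. Its loss causes X-linked myotubular myopathy, in which muscle fibres stay small, their nuclei lie centrally and the triads are disorganized. Triads are the contacts between the T-tubules and the sarcoplasmic reticulum at which excitation of the fibre is turned into calcium release.

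The mice were on the C57BL6/J strain background. KO mice lacked exon 4 of *Mtm1* in all cells, and WT mice of the same line served as controls. According to the methods the line was made in 129S2PAS mice and later moved to C57BL6/J, so strain differences near *Mtm1* and the KO allele cannot be told apart by these groups. Polyadenylated RNA was sequenced from strand-specific libraries. Both genotypes were also sampled at P1, P14 and P35, with n=4 each, and the libraries of P14 and P35 are used below only for comparison with P21. The labels do not state that each library came from its own mouse, so *P*-values measure the spread between these libraries. Library totals at P21 were 49321035 to 55841583 counts in WT and 49889311 to 54034270 counts in KO. Levels are given as counts per 1000000 library counts (CPM) after scaling of the library sizes by TMM, in which most genes are taken not to change. Bulk RNA cannot tell fewer cells of a type from less RNA per cell.

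The targeted gene was low in every KO library. *Mtm1* (ENSMUSG00000031337, GRCm38 chromosome X, 71210767 to 71315691, plus strand) was at 17.9, 18, 16 and 17.1 CPM across WT and 3.06, 2.24, 2.42 and 2.84 CPM across KO libraries. KO over WT had a log2 ratio of -2.71, with an SE of 0.111 and an adjusted *P*-value of 8.13e-06 in edgeR's quasi-likelihood test, and the remaining counts include reads of the exons that the allele keeps. The Y-linked *Ddx3y* was at 97.7 ± 3.9 CPM in WT and 100.1 ± 6.8 CPM in KO (mean ± SD, n=4), so the 8 libraries held male RNA. The muscle fibre markers, among them *Ckm*, *Acta1* and *Mylpf*, summed to 139050.3 to 179125 CPM in WT and 123831 to 138278 CPM in KO, and no marker of the list was at 0. Correlations of log2 CPM across genes were 0.983 to 0.99 within a genotype and 0.971 to 0.982 between genotypes. The first principal component held 43.6% of the variance and separated the genotypes. The WT library of replicate 1 stood farthest out on the next component, which held 15.6%.

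**Figure D1:**
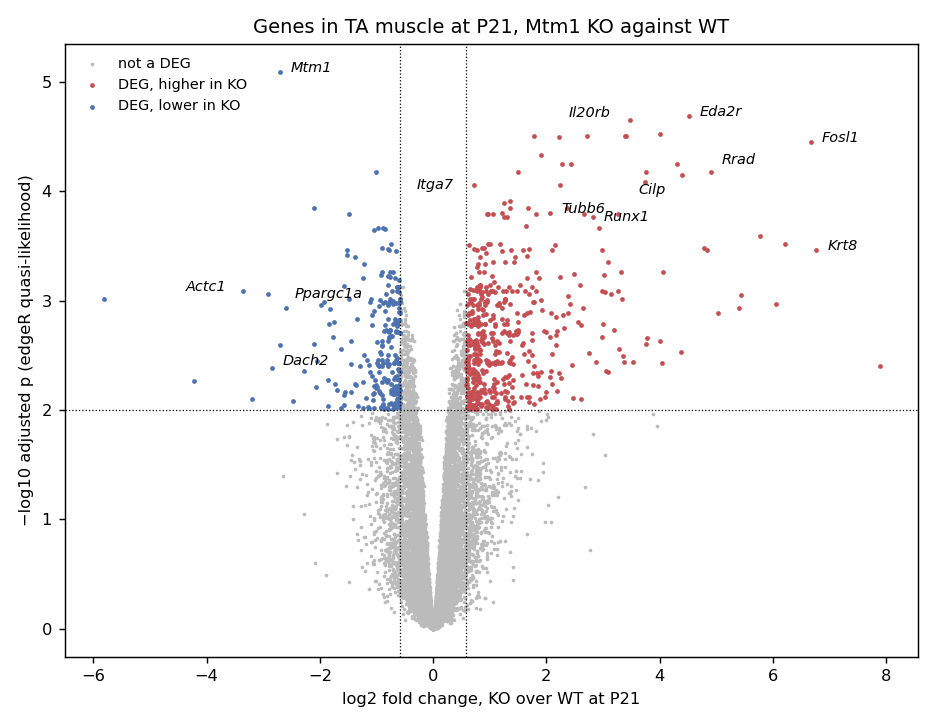
Each point is 1 of 15179 genes tested at P21, with the log2 fold change of KO over WT on the x axis and −log10 of the adjusted *P*-value (edgeR quasi-likelihood test) on the y axis. Dotted lines are the thresholds for DEGs, and the 482 genes higher in KO (red) outnumber the 227 lower in KO (blue).

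Gene expression differed widely between the genotypes at P21. Of 15179 genes with enough counts for a test, 709 (4.67%) were differentially expressed genes (DEGs), defined by an adjusted *P*-value below 0.01 together with a log2 fold change beyond 0.585 in either direction. Of these, 482 were higher in KO (3.18% of genes tested) and 227 were lower (1.5%). DEGs that were higher had low levels in WT, with a median of 5.24 CPM, and 87 of them rose over 4-fold. DEGs that were lower started from a median of 21.4 CPM in WT, and 15 of them fell over 4-fold. A further 525 genes passed the adjusted *P*-value with a smaller fold, 238 higher and 287 lower. The 4 WT libraries did not overlap the 4 KO libraries in 25.4% of the genes tested. In edgeR's test 5329 of the 15179 genes had an unadjusted *P*-value under 0.05. Counts of list members at that level below stand beside this share, and counts of DEGs in lists beside 3.18% higher and 1.5% lower.

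These counts depend on the libraries and on the scaling. With 1 library left out they ranged from 417 (without WT replicate 1) to 626 DEGs, and they were 424 without KO replicate 2 and 468 without KO replicate 4. The mitochondrial chromosome took 9.75% to 12% of counts in WT and 8.21% to 8.78% in KO, and the 10 most abundant genes 22.5% to 23.4% and 19.3% to 20.9%. With library totals in place of TMM, the median over all genes tested, on the log2 scale, moved from 0.0083 to 0.20, while genes higher in KO went from 68.0% to 90.9% of all DEGs. Changes below are given on the TMM scale, relative to this shift. In 4 equal groups of genes by exon length, median log2 fold changes also ran from 0.078 in the shortest to -0.07 in the longest, and the part of transcript length in the results was not tested.

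Many of the strongest rises were of genes that WT fibres hardly express. *Krt8* and *Krt18*, which encode the paired keratins of simple epithelia, rose together. *Krt18* was at 0.282, 0.185, 0.123 and 0.139 CPM across WT and 27.4, 9.12, 6.17 and 12 CPM across KO libraries (log2 fold change 6.21, SE 0.573, adjusted *P*=0.000307). *Krt8* was at 0.0806, 0.0821, 0.0822 and 0.0199 CPM across WT and 14.4, 6.14, 2.71 and 6.54 CPM across KO libraries (log2 fold change 6.77, adjusted *P*=0.000343). Both keratins were highest in KO replicate 1 and lowest in KO replicate 3, and every KO library was above every WT library.

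*Rrad*, a small GTPase that restrains L-type calcium channels, was at 1.57, 1.74, 3.37 and 2.33 CPM across WT and 77.9, 99.1, 52.3 and 41.8 CPM across KO libraries (log2 fold change 4.91, SE 0.34, adjusted *P*=6.62e-05). *Sln* encodes sarcolipin, a small membrane protein that inhibits the SERCA calcium pumps. It was at 2.86, 2.63, 2.92 and 2.48 CPM across WT and 80.2, 140.1, 32.6 and 45.9 CPM across KO libraries (log2 fold change 4.78, SE 0.451, adjusted *P*=0.000334). The KO libraries of *Sln* spread widely, from KO replicate 3 to KO replicate 2, while its WT libraries lay close together. *Cilp*, an extracellular matrix protein, reached high levels, with 18.8, 56.2, 48.8 and 49.7 CPM across WT and 987, 903, 846 and 907 CPM across KO libraries (log2 fold change 4.39, SE 0.31, adjusted *P*=7.19e-05).

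The TNF receptor family member *Eda2r*, a receptor for ectodysplasin and a target of p53, was at 4.19, 7.3, 7.07 and 6.5 CPM across WT and 185, 149, 111 and 127 CPM across KO libraries (log2 fold change 4.51, SE 0.219, adjusted *P*=2.06e-05). Only *Mtm1* had a smaller adjusted *P*-value. *Mt3*, a metallothionein, went from 1 ± 0.345 to 19.8 ± 5.6 CPM (mean ± SD, n=4; log2 fold change 4.30). The microtubule-severing subunit *Katnal2* was at 0.106 ± 0.0645 CPM in WT and 1.81 ± 0.637 CPM in KO (log2 fold change 4.06).

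Some genes had at most 3 counts in every WT library, and their folds are lower bounds against a floor of 3 counts per library. *Fosl1*, a subunit of the transcription factor AP-1, had at most 1 count in a WT library and 64 to 81 counts in KO libraries, at least 20.9-fold higher in KO. *Plet1*, a surface protein of epithelial progenitors, had at most 3 counts in WT and 35 to 97 in KO, at least 17.6-fold higher. *Gsta1*, a glutathione transferase with near-identical relatives that could share its reads, had 17 to 74 counts in KO and was at least 11.2-fold higher. *Sprr1a*, a small proline-rich protein, had 14 to 42 counts in KO and was at least 8.17-fold higher. The call of *Gsta1* ended without WT replicate 1 and without WT replicate 2, with log2 fold changes of 3.77 to 4.90 over all fits that left out 1 library. *Fosl1* and *Plet1* overlap genes of the opposite strand, and strand use in counting is not given in the sources used here.

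Other genes were set apart by small spread more than by size. *Il20rb*, a cytokine receptor chain, was at 1.67, 1.6, 1.27 and 1.61 CPM across WT and 19.5, 19.8, 12 and 17.2 CPM across KO libraries (log2 fold change 3.47, adjusted *P*=2.26e-05). *Vash2*, a tubulin carboxypeptidase, was at 3.59, 3.28, 3.27 and 3.34 CPM across WT and 12, 13.1, 9.79 and 11.6 CPM across KO libraries (log2 fold change 1.78, SE 0.104). The transcription factor *Sox11*, active in embryonic tissue, rose from 1.05 ± 0.142 to 6.9 ± 1.14 CPM (log2 fold change 2.71). *Cpne2*, a calcium-dependent membrane-binding protein, rose from 5.06 ± 1.26 to 53.6 ± 8.76 CPM (log2 fold change 3.40). The other genes among the 12 with the smallest adjusted *P*-values were *Hsf2bp* (log2 fold change 4.0), *Sfn* (2.22) and *Prune2* (1.90), all higher in KO, with *Cdkn1a* described below.

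Leaving aside clone names, the steepest fall was that of cardiac alpha-actin, *Actc1*, a sarcomeric actin that skeletal muscle makes in development. Its level was 7645, 3976, 2164 and 3238 CPM across WT and 258, 479, 448 and 479 CPM across KO libraries (log2 fold change -3.35, SE 0.386, adjusted *P*=0.000813). The WT libraries differed among themselves by more than the KO libraries, and the lowest WT library was still far above the highest KO library. The noncoding gene *C130080G10Rik*, which lies beside *Actc1* on the opposite strand, had 118, 31, 15 and 31.4 CPM across WT and 0.507, 0.706, 1.03 and 1.22 CPM across KO libraries (log2 fold change -5.82, adjusted *P*=0.000958), with WT replicate 1 highest for both genes.

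*Nt5c1a*, a muscle nucleotidase that makes adenosine from AMP, was at 5.76, 3.88, 5.22 and 4.16 CPM across WT and 1.17, 0.917, 1.22 and 1.12 CPM across KO libraries (log2 fold change -2.10, SE 0.165, adjusted *P*=0.000142). The aldehyde dehydrogenase *Aldh1a7* fell from 6.2 ± 1.87 to 1.02 ± 0.488 CPM (log2 fold change -2.60). *Calcr*, the calcitonin receptor of quiescent satellite cells, was at 1.63, 1.38, 1.31 and 1.61 CPM across WT and 0.376, 0.194, 0.591 and 0.206 CPM across KO libraries (log2 fold change -2.11, adjusted *P*=0.00251). *Erfe*, which encodes the hormone myonectin or erythroferrone, had a log2 fold change of -2.27, and the BMP inhibitor *Chrdl2* one of -1.84. The remaining strong falls were of genes below 5 CPM. *Dach2* (log2 fold change -2.85), a transcriptional repressor, *Nppc* (-2.47), which encodes C-type natriuretic peptide, *Nkx6-3* (-2.06), *Exph5* (-1.86) and *Zyg11a* (-1.86) were lower in all fits that left out 1 library, but their calls were kept in 1, 1, 0, 1 and 1 of the 8. That of *Erfe* was kept in 5, and it overlaps *Ilkap* on the opposite strand.

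**Figure D2:**
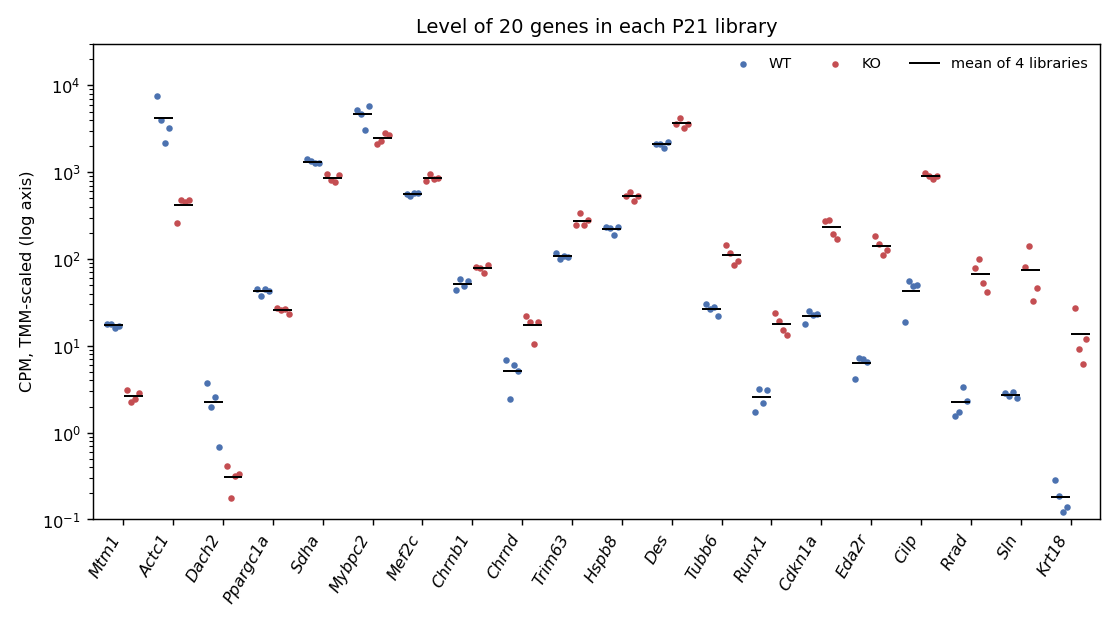
Level of 20 genes in the 4 WT (blue) and 4 KO (red) libraries at P21, in CPM on a log axis, with black bars at the means. The libraries of the genotypes do not overlap for any gene shown, with *Mtm1*, *Actc1* and *Dach2* lower in KO and *Eda2r*, *Cilp*, *Rrad*, *Sln* and *Krt18* higher by a factor of 10 or more.

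Genes of the neuromuscular junction (NMJ), where the motor nerve acts on acetylcholine receptors of the fibre, were examined next, with the regulators that respond to denervation. When a fibre loses its nerve input, myogenin and other regulators rise and receptor subunit genes are read along the whole fibre. Of 18 junction genes tested, 3 were DEGs higher in KO and 0 lower, beside 3.18% and 1.5% of all genes, and the median log2 fold change was 0.40. *Chrnd*, the delta subunit of the receptor, was at 6.91, 2.46, 6.06 and 5.09 CPM across WT and 21.8, 18.9, 10.5 and 19 CPM across KO libraries (log2 fold change 1.77, SE 0.31, adjusted *P*=0.00462). The beta subunit *Chrnb1* was at 43.6, 58.5, 49 and 55.8 CPM across WT and 80.7, 78.3, 68.4 and 85.5 CPM across KO libraries (log2 fold change 0.60, adjusted *P*=0.00451), and the neuregulin receptor *Erbb2* at 4.43, 6.05, 5.69 and 5.71 CPM and 10.6, 8.84, 7.36 and 9.16 CPM (log2 fold change 0.72, adjusted *P*=0.00631). For all 3 genes every KO library was above every WT library, but the calls were near the threshold. *Chrnd* was called in 3, *Chrnb1* in 3 and *Erbb2* in 1 of 8 fits that left out 1 library, and *Erbb2* overlaps *Mien1* on the opposite strand. Of the subunits and clustering genes that did not pass, *Chrna1* had a log2 fold change of 1.38 (adjusted *P*=0.0137), *Musk* 0.60 (adjusted *P*=0.187), *Chrne* of the adult receptor 0.63 (adjusted *P*=0.206) and *Lrp4* 0.45 (adjusted *P*=0.0149).

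E-boxes with the letters CAGNTG are bound by myogenic factors such as MyoD and myogenin. RefSeq promoter windows of GRCm38.p6 held an entry for *Chrnb1* and *Erbb2* of the 3 called junction genes. The 150 bases before their starts are printed here because both promoters carry the motif, with its bases in capitals. The *Chrnb1* stretch is chr11:69795938-69796087 on the minus strand and the *Erbb2* stretch chr11:98412334-98412483 on the plus strand.
Chrnb1: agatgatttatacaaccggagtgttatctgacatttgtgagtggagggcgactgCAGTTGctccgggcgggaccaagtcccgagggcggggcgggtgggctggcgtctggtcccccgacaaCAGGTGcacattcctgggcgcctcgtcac
Erbb2: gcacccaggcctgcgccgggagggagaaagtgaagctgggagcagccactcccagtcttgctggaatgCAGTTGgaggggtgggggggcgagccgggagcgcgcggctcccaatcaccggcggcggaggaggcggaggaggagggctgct
The motif was searched on both strands, and in these promoters it stands on the strand of the gene. It begins at positions -96 and -29 relative to the *Chrnb1* start and at -82 relative to the *Erbb2* start. It occurred in the 250 bases before the start of 44.8% of all 32851 windows, so its presence is common.

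Regulators that respond to denervation rose in part. Of 14 tested, 7 were DEGs higher in KO and 1 lower, beside 3.18% and 1.5% of all genes. The median log2 fold change was 0.88, against 0.0083 for all genes tested. *Runx1*, a transcription factor that denervated fibres induce, was at 1.71, 3.16, 2.22 and 3.1 CPM across WT and 23.8, 19.2, 15.3 and 13.4 CPM across KO libraries (log2 fold change 2.81, SE 0.237, adjusted *P*=0.000174). *Gadd45a*, a stress protein that acts on chromatin in denervated fibres, was at 29.4, 30.8, 25.8 and 25.8 CPM across WT and 83.8, 69, 56.4 and 52.3 CPM across KO libraries (log2 fold change 1.23, adjusted *P*=0.00082). *Myog*, which encodes myogenin, rose from 12.4 ± 4.31 to 31.7 ± 3.73 CPM (log2 fold change 1.35, adjusted *P*=0.00349).

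*Hdac4*, a deacetylase that represses *Dach2* in denervated muscle, had a log2 fold change of 0.73 (adjusted *P*=0.00156), and *Dach2* itself, a repressor of myogenin, fell by 2.85 on the log2 scale. *Ncam1*, the adhesion molecule of denervated and regenerating fibres, rose from 9.58 ± 2.51 to 27.1 ± 4.64 CPM. *Myf6*, a myogenic factor of mature fibres, rose from 59.6 ± 9.05 to 92.3 ± 13.7 CPM. *Mef2c*, a myogenic cofactor, was at 557, 537, 574 and 581 CPM across WT and 799.5, 944, 843 and 859 CPM across KO libraries (log2 fold change 0.62). The myogenic factors *Myod1* (log2 fold change 1.04, adjusted *P*=0.0102) and *Myf5* (-0.67, adjusted *P*=0.0115) did not pass. With 1 library left out, 4 to 8 of these regulators were called higher.

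The p53 targets that rose included regulators of cell cycle arrest and cell death. Of 20 genes of the pathway tested, 5 were DEGs higher in KO and 0 lower, beside 3.18% and 1.5% of all genes. With 1 library left out, 4 to 6 were called higher. *Cdkn1a*, which encodes the cell cycle inhibitor p21, was at 17.9, 25.1, 22.8 and 23.1 CPM across WT and 277, 284, 195 and 169.7 CPM across KO libraries (log2 fold change 3.38, SE 0.19, adjusted *P*=3.11e-05). *Trp63*, the p53 relative p63, was at 6.04, 5.17, 3.6 and 4.61 CPM across WT and 23.4, 26.8, 21.7 and 21.8 CPM across KO libraries (log2 fold change 2.27, adjusted *P*=5.64e-05). *Bbc3*, a death-promoting member of the BCL2 family also called PUMA, had a log2 fold change of 1.66 and the junction protein *Perp* one of 1.06. *Trp53* itself had a log2 fold change of 0.43 (adjusted *P*=0.0285), and *Mdm2*, which encodes its ubiquitin ligase, one of 0.48 (adjusted *P*=0.00934).

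Of 17 AP-1 and immediate early genes, 2 were DEGs higher in KO, *Fosl1* and *Egr3*, beside 3.18% of all genes. *Egr3*, a zinc finger factor of muscle spindles, was at 2, 1.85, 3.21 and 2.58 CPM across WT and 4.87, 8.1, 5.3 and 4.58 CPM across KO libraries (log2 fold change 1.25, adjusted *P*=0.00575), and its call was kept in 2 of 8 fits that left out 1 library. *Fos* had a log2 fold change of 0.047 (adjusted *P*=0.967), *Jun* -0.30 (adjusted *P*=0.117) and *Nr4a3* -0.18 (adjusted *P*=0.8). The level of *Nr4a3*, 7.11, 7.39, 10.9 and 3.16 CPM across WT and 4.26, 8.15, 9.81 and 2.99 CPM across KO libraries, overlapped fully between the genotypes.

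Among stress response genes, the list of small heat shock proteins and BAG3 and that of metallothioneins stood out from the unfolded protein response. Small heat shock proteins bind unfolding proteins at the Z-disc, and BAG3 couples them to selective autophagy. The list also held *Bag3*, *Hspa1a*, *Hspa1b*, *Hspa8* and *Dnajb1*, which are not small heat shock proteins. Of its 12 genes tested, 6 were DEGs higher in KO and 0 lower, all 12 had a log2 fold change above 0, and the median was 0.67. *Hspb8* was at 236, 228, 192 and 236 CPM across WT and 535, 595, 471 and 527 CPM across KO libraries (log2 fold change 1.25, SE 0.0964, adjusted *P*=0.000128). *Hspb7* was at 534, 524, 584 and 532 CPM across WT and 1543, 1506, 905 and 1086 CPM across KO libraries (log2 fold change 1.21), and *Hspb3* at 21.9 ± 2.01 and 34.5 ± 5.54 CPM (log2 fold change 0.66). With 1 library left out 2 to 5 members were called, and *Hspb3* in 4 of 8 such fits.

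Of 3 metallothioneins tested, which bind zinc and copper, 2 were DEGs higher in KO. *Mt2* was at 3.16, 3.22, 1.71 and 1.71 CPM across WT and 18.8, 18.4, 26 and 31 CPM across KO libraries (log2 fold change 3.26, adjusted *P*=0.000162), and *Mt1* had a log2 fold change of 0.96 (adjusted *P*=0.0203). Of 14 targets of the antioxidant factor NRF2, 3 were DEGs higher in KO, beside 3.18% of all genes. *Srxn1*, which repairs peroxiredoxins, was at 23.8, 23.5, 18.6 and 21.1 CPM across WT and 40.1, 45.5, 40.5 and 43.6 CPM across KO libraries (log2 fold change 0.96, adjusted *P*=0.000306). *Txn1*, thioredoxin, had a log2 fold change of 0.68 and the quinone reductase *Nqo1* one of 1.00, whose call was kept in 2 of 8 fits that left out 1 library.

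By contrast, of 19 genes of ER chaperones and the unfolded protein response 0 were called by edgeR in either direction. Higher at an unadjusted *P*-value under 0.05 were 10 of these genes, and the median log2 fold change was 0.21. DESeq2 called 1 of them, higher in KO. The chaperones *Hspa5* (log2 fold change 0.20, adjusted *P*=0.128) and *Calr* (0.12, adjusted *P*=0.247) were the most abundant. Of 22 genes of the integrated stress response, which the factor ATF4 drives, 1 was a DEG. This was *Chac1*, a glutathione-degrading enzyme, at 3.16, 5.46, 5.5 and 4 CPM across WT and 6.69, 12.1, 14.1 and 15 CPM across KO libraries (log2 fold change 1.40, SE 0.261, adjusted *P*=0.00616), called in 1 of 8 fits that left out 1 library. *Atf4* itself had a log2 fold change of 0.18 (adjusted *P*=0.324) and *Ddit3*, which encodes CHOP, one of -0.64 (adjusted *P*=0.0183). The motif TGATGNAA of ATF4 sites occurred in 3.45% of all RefSeq windows on either strand. The *Chac1* window held it once, on the minus strand from position -193 relative to the start. It is shown in capitals in the stretch chr2:119350992-119351141 of the plus strand, since *Chac1* was the gene of this list that passed.
Chac1: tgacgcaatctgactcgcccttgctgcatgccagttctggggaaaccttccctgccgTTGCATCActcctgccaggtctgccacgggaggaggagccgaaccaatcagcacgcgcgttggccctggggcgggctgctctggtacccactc

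Cytoskeletal genes rose beyond the keratins. Intermediate filaments hold the myofibrils, nuclei and membrane in register, and of 10 tested 6 were DEGs higher in KO and 0 lower (5 to 6 with 1 library left out). Desmin, *Des*, the main intermediate filament of muscle, was at 2131, 2133, 1895 and 2203 CPM across WT and 3577, 4255, 3220.1 and 3629 CPM across KO libraries (log2 fold change 0.81, SE 0.102, adjusted *P*=0.00109). *Lmna*, which encodes lamins A and C of the nuclear envelope, was at 84.7, 95, 91.1 and 91.7 CPM across WT and 157, 205, 157 and 159 CPM across KO libraries (log2 fold change 0.91). *Nes*, nestin, rose from 130.4 ± 22.1 to 243 ± 55.3 CPM and *Sync*, syncoilin, from 35.7 ± 4.05 to 69.8 ± 9.34 CPM. Vimentin, *Vim*, had a log2 fold change of 0.17 (adjusted *P*=0.467).

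Of 12 tubulin isotypes tested 2 were DEGs higher in KO and 0 lower, beside 3.18% and 1.5% of all genes. In edgeR's test 2 were higher and 3 lower at an unadjusted *P*-value under 0.05, and the median log2 fold change was 0.18. *Tubb6* was at 30.1, 26.2, 28.2 and 21.9 CPM across WT and 145, 118, 86.2 and 95.5 CPM across KO libraries (log2 fold change 2.07, SE 0.167, adjusted *P*=0.00016). *Tubb4b* had a log2 fold change of 0.61 and was called in 4 of 8 fits that left out 1 library. Genes of the stretch response included *Mustn1*, a regulator of muscle regeneration, at 20.3, 34.9, 48.2 and 38.9 CPM across WT and 176, 176, 125 and 192 CPM across KO libraries (log2 fold change 2.24). *Csrp3*, the Z-disc protein MLP, was the other DEG of the 12 in that list (log2 fold change 1.85, called in 3 of 8 fits that left out 1 library). The laminin receptor subunit *Itga7* was at 98.1, 99.6, 104 and 105 CPM across WT and 169, 172, 167 and 165 CPM across KO libraries, with close replicates in both genotypes (log2 fold change 0.73, SE 0.0534, adjusted *P*=8.79e-05). *Cavin4*, a caveolar coat protein of muscle, had a log2 fold change of 0.81, and its call ended without WT replicate 2 (adjusted *P*=0.012). These were the 2 called of 22 genes of the dystrophin complex, integrins and caveolae, whose median log2 fold change was -0.028 and turned to 0.16 with library totals.

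Few fibre type genes were called at this age. None of 12 slow fibre genes was called by edgeR. Of these 3 were higher and 2 lower at an unadjusted *P*-value under 0.05, beside 5329 of all 15179 genes, and DESeq2 called 1. Slow myosin, *Myh7*, was at 111, 73.6, 69.9 and 427 CPM across WT and 322, 402, 292 and 235 CPM across KO libraries (log2 fold change 0.88, adjusted *P*=0.277), with WT replicate 4 above every KO library. Without that library 5 slow fibre genes were called higher in KO, among them *Myh7* and *Tnnt1*. Of 16 fast fibre genes 1 was called. This was *Mybpc2*, fast myosin-binding protein C, at 5189, 4670.1, 3038 and 5860 CPM across WT and 2138, 2296, 2839 and 2692 CPM across KO libraries (log2 fold change -0.91, adjusted *P*=0.00968), called in 1 of 8 fits that left out 1 library. The median of the fast genes was -0.28, and -0.087 with library totals.

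Per exon length, *Myh4*, the fast IIB isoform, made up 71.7 ± 13.2% of the transcripts of 6 sarcomeric myosin heavy chains in WT and 69.6 ± 4.06% in KO (mean ± SD, n=4). The WT share was lowest in WT replicate 3, at 52.1%, where *Myh1*, the IIX isoform, made up 44.4%. The developmental isoforms *Myh3* and *Myh8* stayed below 0.1% in every library. Their shares were nevertheless higher in every KO library than in any WT library, although neither gene was a DEG. *Myh3* made up 0.0102 ± 0.0082% in WT and 0.0462 ± 0.0177% in KO, and *Myh8* 0.0164 ± 0.0026% and 0.0285 ± 0.0041%. Of 7 developmental and cardiac isoforms tested, *Myl4*, embryonic and atrial myosin light chain, was at 2.8, 4.33, 5.32 and 4.33 CPM across WT and 32.4, 31.2, 23 and 19.6 CPM across KO libraries (log2 fold change 2.66, SE 0.22, adjusted *P*=0.000162), and cardiac troponin T, *Tnnt2*, rose with a log2 fold change of 1.13 (called in 2 of 8 fits that left out 1 library), opposite to *Actc1*.

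Triad genes were of interest because triads become disorganized without myotubularin. The paper reports unchanged triads in KO muscle at P21, with differences only at later ages. Of 21 tested, 2 were DEGs higher and 1 lower, and the median log2 fold change was -0.013 (0.18 with library totals). Besides *Sln*, *Cacng1*, the gamma subunit of the voltage sensor, was at 137, 132, 89.8 and 153 CPM across WT and 293, 333, 266 and 341 CPM across KO libraries (log2 fold change 1.27, SE 0.154, adjusted *P*=0.000993). *Sypl2*, the triad protein mitsugumin 29, was at 1588, 1149, 1106 and 1367 CPM across WT and 837, 896, 863 and 874 CPM across KO libraries (log2 fold change -0.59, adjusted *P*=0.00757), called in 1 of 8 fits that left out 1 library. The calcium release channel *Ryr1* had a log2 fold change of -0.13 (adjusted *P*=0.503), the voltage sensor *Cacna1s* -0.033 (adjusted *P*=0.808) and junctophilin, *Jph1*, -0.14 (adjusted *P*=0.416). *Bin1*, the amphiphysin of T-tubules, was at 455, 435, 352 and 493 CPM across WT and 561, 728, 572 and 669 CPM across KO libraries and missed the threshold (log2 fold change 0.54, adjusted *P*=0.0134). *Dnm2*, the membrane-severing GTPase dynamin-2, had a log2 fold change of 0.14 (adjusted *P*=0.19).

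Of 14 members of the myotubularin family tested, *Mtm1* was the DEG in edgeR, and 13 others had log2 fold changes of -0.40 to 0.83. *Mtmr11*, at 0.83 (adjusted *P*=0.0237), was called higher by DESeq2, with library totals and without KO replicate 4. The others include *Mtmr12* (-0.16, adjusted *P*=0.34) and *Mtmr10* (-0.40, adjusted *P*=0.0312), the inactive relatives of which *Mtmr12* is a known partner of myotubularin. *Mtmr10* was at 32.8, 27.3, 25.4 and 25.1 CPM across WT and 23.5, 18.1, 22.3 and 19.99 CPM across KO libraries, so that the genotypes did not overlap. None of 8 kinases and regulators that make the lipid substrates was called by edgeR or DESeq2, with 2 higher and 1 lower at an unadjusted *P*-value under 0.05.

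**Figure D3:**
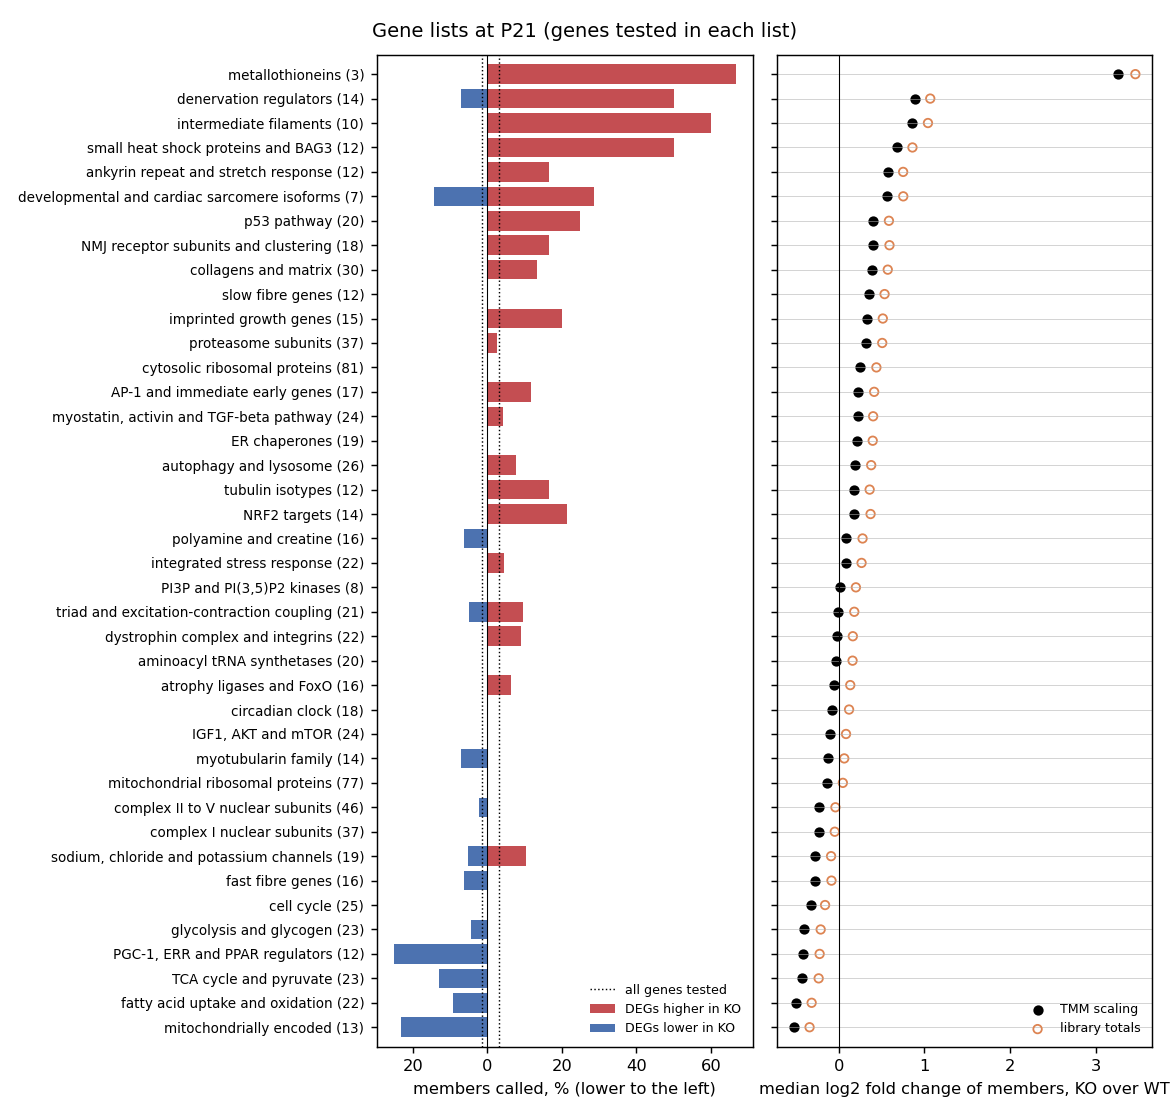
Gene lists at P21, with the number of genes tested in brackets. Left, percentage of members that were DEGs higher (red) or lower (blue) in KO, with dotted lines at 3.18% and 1.5%, the shares of all genes tested. Right, the median log2 fold change of members with TMM scaling (filled) and library totals (open), from 3.26 for metallothioneins to -0.53 for mitochondrially encoded genes.

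Mitochondrial genes were lower in KO, mostly by less than the fold threshold. All 13 protein-coding genes of the mitochondrial genome were lower, without overlap between genotypes, beside 25.4% of all genes without overlap. 12 of them passed the adjusted *P*-value and 3 were DEGs, *mt-Nd2*, *mt-Nd4l* and *mt-Nd5*, which encode subunits of complex I. *mt-Nd2* was at 9344, 8538, 9039.7 and 8108 CPM across WT and 5868, 5383, 5142 and 5678 CPM across KO libraries (log2 fold change -0.67, SE 0.0904, adjusted *P*=0.00156). With 1 library left out 2 to 7 of the genes were DEGs (7 without WT replicate 4), and DESeq2 called 6. With library totals 2 were called, and *mt-Nd2* was not among them. *mt-Nd4l* had a log2 fold change of -0.85 and *mt-Nd5* one of -0.81 (called in 2 of 8 fits that left out 1 library), and cytochrome *b*, *mt-Cytb*, one of -0.57 (adjusted *P*=0.0044). These genes overlap or border each other and nuclear copies could share their reads. The list median was -0.53 and was -0.34 with library totals.

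Nuclear subunits of the respiratory chain were lower by a smaller margin. Of 37 complex I subunits 0 passed both thresholds with edgeR or DESeq2, 9 passed the adjusted *P*-value alone, all lower, and 26 were lower at an unadjusted *P*-value under 0.05. *Ndufs1*, a core subunit, was at 686, 654, 622 and 625 CPM across WT and 448, 476, 448 and 462 CPM across KO libraries (log2 fold change -0.49, SE 0.0638, adjusted *P*=0.00124). *Ndufa3* had a log2 fold change of -0.14 (adjusted *P*=0.166). Of 46 subunits of complexes II to V, 1 was a DEG and 44 had a log2 fold change below 0. *Sdha*, the catalytic subunit of complex II, was at 1413, 1336, 1285 and 1271 CPM across WT and 943, 813, 762 and 929.5 CPM across KO libraries (log2 fold change -0.62, SE 0.0887, adjusted *P*=0.00193). Without KO replicate 3 its log2 fold change was -0.57, short of the threshold, and it was not called. *Atp5c1* of the ATP synthase had a log2 fold change of -0.32 (adjusted *P*=0.0126) and cytochrome c, *Cycs*, one of -0.45 (adjusted *P*=0.00448). The medians of -0.24 and -0.23 shrank to -0.049 and -0.041 with library totals, and *Sdha* was then not called.

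Enzymes that feed the chain were lower too. All 23 genes of the TCA cycle and pyruvate entry had log2 fold changes below 0, 18 passed the adjusted *P*-value and 3 were DEGs. *Idh3a*, of the NAD-dependent isocitrate dehydrogenase, was at 1094, 1072, 941 and 887 CPM across WT and 628, 647, 568 and 605 CPM across KO libraries (log2 fold change -0.71, SE 0.088, adjusted *P*=0.00107). *Pdha1* and *Pdhx*, of pyruvate dehydrogenase, had log2 fold changes of -0.60 and -0.59, at the fold threshold, called in 7 and 4 of 8 fits that left out 1 library. Of 22 genes of fatty acid uptake and oxidation, all with log2 fold changes below 0, *Acadvl* (-0.60), an acyl-CoA dehydrogenase, and *Lpl* (-0.59), lipoprotein lipase, were DEGs, in 2 and 1 of the 8 fits. Of 23 glycolysis and glycogen genes, *Pgam2*, muscle phosphoglycerate mutase, was the DEG (log2 fold change -0.68, 4 of the 8 fits, with 0 to 6 genes of the list called in these and 6 without WT replicate 3) and 22 were below 0. The list medians were -0.43, -0.50 and -0.41. With library totals they were -0.24, -0.32 and -0.21, and none of these enzymes was called.

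Regulators of these genes were lower as well. *Ppargc1a*, which encodes the coactivator PGC-1alpha of mitochondrial genes, was at 45.2, 37.2, 45.5 and 43 CPM across WT and 27.7, 25.6, 26.9 and 23.1 CPM across KO libraries (log2 fold change -0.73, SE 0.0843, adjusted *P*=0.000815). *Perm1*, a muscle regulator induced by PGC-1 and ERR, was at 329.9, 322, 320.3 and 269 CPM across WT and 180.4, 191, 179.5 and 138 CPM across KO libraries (log2 fold change -0.85). *Ppara*, the fatty acid sensor PPARalpha, had a log2 fold change of -1.04 and was called in 1 of 8 fits that left out 1 library. These 3 were the DEGs of 12 regulators tested, of which 1 was called lower with library totals. *Ckmt2*, the mitochondrial creatine kinase, was the DEG of the 16 polyamine and creatine genes, with 1622 ± 219 CPM in WT and 958 ± 66 CPM in KO (log2 fold change -0.76). It was not called with library totals, where 3 other members were called higher, nor in the fit of all 32 libraries. *Micu2*, a regulator of mitochondrial calcium uptake, went the other way and missed the fold threshold, at 34, 39.9, 40.7 and 39.9 CPM across WT and 50.3, 63, 53 and 58.9 CPM across KO libraries (log2 fold change 0.54, adjusted *P*=0.00332). *Immt*, of the cristae junctions, had a log2 fold change of -0.37 (adjusted *P*=0.00824), and *Pdp1* one of -0.035 (adjusted *P*=0.869).

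Protein breakdown and growth were examined because KO muscle fibres are small at later ages. In the paper their mean size was not significantly lower at P21. *Trim63*, which encodes the muscle ubiquitin ligase MuRF1, was at 117, 101, 109 and 106 CPM across WT and 246, 335, 247 and 281 CPM across KO libraries (log2 fold change 1.36, SE 0.106, adjusted *P*=0.000142). It was the DEG of 16 atrophy genes, and the ligase *Fbxo32*, atrogin-1, had a log2 fold change of 1.17 (adjusted *P*=0.0278). Of 37 proteasome subunits 1 was a DEG, *Psmd8* (85.6, 97.4, 85.9 and 89.2 CPM across WT and 174, 174, 140.2 and 144 CPM across KO libraries, log2 fold change 0.82). Of the list 35 members were above 0 and 13 passed the adjusted *P*-value, with a median of 0.31. With library totals 13 were DEGs and the median was 0.51. Among 26 autophagy and lysosome genes, *Sqstm1*, the cargo receptor p62, was at 241, 282, 201 and 261 CPM across WT and 452, 402, 347 and 461 CPM across KO libraries (log2 fold change 0.75, adjusted *P*=0.00341, 5 of 8 fits that left out 1 library). The phagophore protein *Map1lc3a* was at 137, 125, 110.5 and 130.2 CPM across WT and 216, 262, 182 and 219 CPM across KO libraries (log2 fold change 0.81).

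*Fst*, follistatin, an inhibitor of myostatin and activins, was the DEG of 24 genes of that pathway (log2 fold change 1.28, adjusted *P*=0.00494, 3 of 8 fits that left out 1 library), and myostatin, *Mstn*, had a log2 fold change of -1.35 (adjusted *P*=0.0506). None of 24 genes of IGF1, AKT and mTOR signalling was called by edgeR or DESeq2, with 2 higher and 4 lower at an unadjusted *P*-value under 0.05. The most abundant were *Igfbp5* (log2 fold change -0.10) and *Igf2* (-0.27, adjusted *P*=0.285). Of 15 imprinted genes, the noncoding *Mirg* (1.21) and *Meg3* (0.79) of the *Dlk1* locus and *Peg10* (0.69) were DEGs higher in KO, in 4, 1 and 2 of 8 fits that left out 1 library.

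Of 19 channel genes, *Kcnn3*, the SK channel of denervated fibres, was at 7.32, 6.81, 7.72 and 7.63 CPM across WT and 24, 16.9, 14.1 and 16.1 CPM across KO libraries (log2 fold change 1.27, SE 0.152, adjusted *P*=0.000958). *Kcnq5* had a log2 fold change of 1.04 and was called in 1 of 8 fits that left out 1 library. The voltage-gated potassium channel *Kcna7* was lower, at 86.5, 85.7, 81.5 and 95.6 CPM across WT and 47.8, 55.9, 47 and 51.8 CPM across KO libraries (log2 fold change -0.79, adjusted *P*=0.000345). The chloride channel *Clcn1* had a log2 fold change of -0.092 (adjusted *P*=0.64) and the sodium channel *Scn4a* -0.28 (adjusted *P*=0.0418).

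Matrix genes and macrophage markers were higher in KO. Of 30 matrix genes 4 were DEGs, all higher, and 27 had a log2 fold change above 0 (median 0.38). After *Cilp*, the metalloproteinase inhibitor *Timp1* was at 0.564, 1.31, 0.986 and 1.93 CPM across WT and 8.68, 13.1, 9.53 and 7.46 CPM across KO libraries (log2 fold change 3.01, SE 0.321, adjusted *P*=0.000585). The proteoglycan *Bgn*, biglycan, had a log2 fold change of 0.94 (3 of 8 fits that left out 1 library) and the matrix protein *Postn* one of 1.07 (adjusted *P*=0.00583). *Col1a1* (0.064, adjusted *P*=0.942) and *Col3a1* (0.36, adjusted *P*=0.0768) did not pass. Tenocyte markers such as *Tnmd* and *Scx* summed to 17.1 to 549 CPM in WT and 126 to 812 CPM in KO. The RNA of these markers thus varied within both genotypes, and none of 6 was at 0. Fibro-adipogenic markers summed to 2871 to 4991 CPM in WT and 3529 to 6187 CPM in KO, with none of 8 a DEG. The part of both marker sets in the matrix result was not tested.

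Of 10 macrophage markers 4 were DEGs higher in KO (0 to 3 with 1 library left out). The sum of the 10 was 95.1 to 115 CPM in WT and 128 to 158 CPM in KO, without overlap. *C1qc* of complement C1q had a log2 fold change of 0.61 (adjusted *P*=0.00253), the lysosomal marker *Cd68* 1.23 and lysozyme, *Lyz2*, 0.76, while *Adgre1*, which encodes F4/80, had 0.45 (adjusted *P*=0.0269). Neutrophil markers summed to at most 3.18 CPM and T and B cell markers to at most 2.33 CPM in any library. Keratinocyte markers summed to at most 3.56 CPM, with *Krt15* and *Flg* at 0 in every library. The satellite cell markers *Calcr* and *Pax7* (log2 fold change -0.91, adjusted *P*=0.00348) were DEGs lower in KO, and the sum of the 8 overlapped between genotypes.

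Endothelial markers summed to 619.8 to 918 CPM in WT and 491 to 584 CPM in KO, without overlap. All 8 had log2 fold changes below 0 and none was a DEG in edgeR, with 6 lower at an unadjusted *P*-value under 0.05 and 1 called by DESeq2. Smooth muscle and pericyte markers were likewise lower in sum without overlap, with 0 DEGs by either tool and 3 at an unadjusted *P*-value under 0.05. Schwann, adipocyte and erythroid sums overlapped between genotypes, and none of their markers was a DEG in edgeR, with 0, 0 and 4 lower at an unadjusted *P*-value under 0.05 and 1 erythroid marker called by DESeq2. The cardiomyocyte list was higher in sum, 15.1 to 27.8 CPM in WT and 30.3 to 44.5 CPM in KO, with *Myl4* as its DEG, and atrial *Myl7* was at 0 in every library.

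Of genes of protein synthesis and the cell cycle, no list held a DEG in edgeR with TMM. Over all genes, 5329 of 15179 had an unadjusted *P*-value under 0.05 in edgeR's test. None of 81 cytosolic ribosomal protein genes was a DEG in edgeR or DESeq2, but 79 had log2 fold changes above 0, 72 at an unadjusted *P*-value under 0.05, with a median of 0.25 and *Rplp0* at 0.19. The 77 mitochondrial ribosomal protein genes had a median of -0.14, which turned to 0.046 with library totals, with no DEG in edgeR, 1 in DESeq2 and 32 lower at an unadjusted *P*-value under 0.05. *Mrpl12* had a log2 fold change of -0.30 and *Mrpl22* one of -0.055. Of the 20 aminoacyl tRNA synthetases, *Eprs* had a log2 fold change of 0.37 (adjusted *P*=0.0161), and none was a DEG in either tool (3 higher and 4 lower at an unadjusted *P*-value under 0.05). Of 25 cell cycle genes 24 had log2 fold changes below 0, with no DEG in either tool and 3 lower at an unadjusted *P*-value under 0.05. Cyclin D1, *Ccnd1*, was among the most abundant (log2 fold change -0.72, adjusted *P*=0.0678). No clock gene of 18 was a DEG in either tool (1 lower at an unadjusted *P*-value under 0.05), and the clock factors *Tef* and *Nr1d2* were both lowest in WT replicate 3 among WT libraries, at 119 and 97.7 CPM.

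Counts for other lists moved with the settings as well. With library totals the number of members called higher went from 3 to 5 for junction genes, from 5 to 9 for the p53 pathway, from 2 to 5 for autophagy, from 2 to 6 for the dystrophin complex and from 4 to 7 for macrophage markers. It went from 1 to 4 for the myostatin pathway and from 3 to 6 for imprinted genes. Where TMM gave 0, library totals gave 2 for the list of ER chaperones and the unfolded protein response (*Manf* and *Xbp1*). They also gave 2 for the IGF1 list (*Akt2* and *Eif4ebp1*), cytosolic ribosomal proteins and fibro-adipogenic markers. For slow fibre genes (*Tnni1*) and the lipid kinases (*Vac14*) they gave 1. DESeq2 called 6 imprinted and 6 matrix genes higher and 5 genes of fatty acid oxidation lower. A fit with the replicate number as a block moved counts both ways. Members called higher fell from 3 to 1 for junction genes and from 4 to 1 for macrophage markers. They fell from 6 to 3 for small heat shock proteins and BAG3 and from 3 to 0 for imprinted genes. They rose from 7 to 8 for denervation regulators and from 4 to 5 for matrix genes. They also rose from 2 to 3 for the dystrophin complex and from 1 to 2 for the myostatin pathway.

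Genes beside the KO allele were checked on their own. Within 5 Mb of *Mtm1* 69 other genes were tested and 2 were DEGs (2.9%, beside 4.67% of all genes), with a median log2 fold change of -0.012. Both lie over 2 Mb away. *Bgn* (chromosome X, 73483602 to 73495933) is described above. *Mpp1* (chromosome X, 75109733 to 75131016), a membrane scaffold protein, was at 13.7, 16, 14.5 and 15 CPM across WT and 23.4, 27.8, 21.2 and 28.1 CPM across KO libraries (log2 fold change 0.76, SE 0.103, adjusted *P*=0.00152), and it overlaps *Dkc1* on the opposite strand. Of 10 genes within 1 Mb none was a DEG, and their log2 fold changes ran from -0.35 to 0.33. The share of DEGs on chromosome X and the autosomes ran from 2.91% to 5.98%, and 3 of 15 mitochondrial and 0 of 6 Y-linked genes were called. Farther away on the chromosome, *Prr32* was a DEG higher in KO (log2 fold change 2.31).

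**Figure D4:**
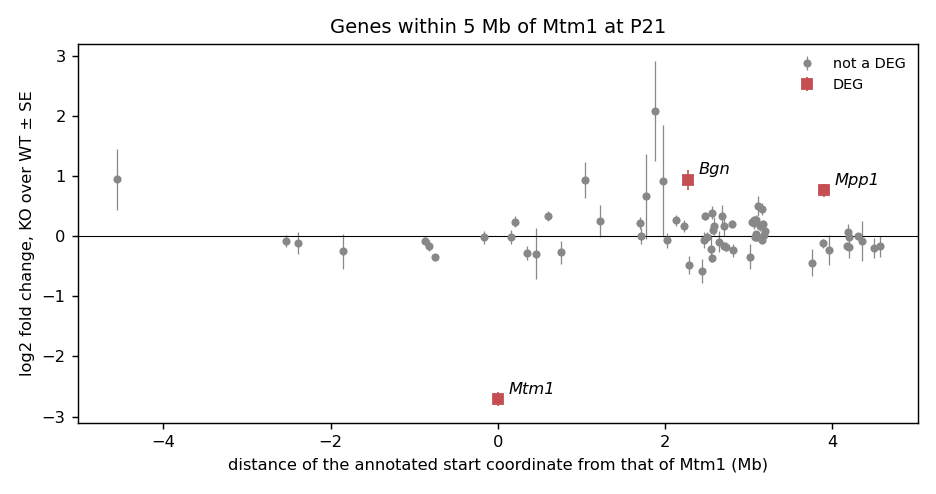
Log2 fold change of KO over WT at P21 (± SE) of genes within 5 Mb of *Mtm1*, by the distance of their start coordinates in Mb. *Mtm1*, at -2.71, is far below its neighbours, and the DEGs *Bgn* and *Mpp1* (red squares) lie at 2.27 and 3.9 Mb.

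Libraries of P14 and P35, which share none with P21, show how early and how lastingly these genes differed. At P14, 4 genes tested at both ages were DEGs higher in KO (0.0266%) and 1 lower (0.00666%), so nearly all DEGs of P21 were not yet called. Of the 482 genes higher at P21, 462 were tested at P14. Their median log2 fold change there was 0.25, and 424 were above 0, against 7506 of 15017 genes overall. Of the genes lower at P21, 202 of 223 were below 0 at P14, with a median of -0.22.

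The difference between genotypes changed from P14 to P21 for 79 of 18583 genes by an interaction test in edgeR (0.425%), 70 with a more positive and 9 with a more negative log2 fold change at P21. Of these, 74 were DEGs at P21, beside 4.67% of all genes tested at P21. The interaction test used the same P21 libraries, so this overlap is not independent of the P21 calls. Among the most positive, *Rrad* had log2 fold changes of 1.31 at P14 and 4.91 at P21 (interaction 3.59, SE 0.466, adjusted *P*=6.76e-05). *Eda2r* went from 1.62 to 4.51 (interaction adjusted *P*=1.22e-07) and *Cilp* from 1.92 to 4.39 (interaction adjusted *P*=6.76e-05). Among the most negative, *Shmt1*, an enzyme of folate and serine metabolism, went from -0.28 to -1.74 (interaction adjusted *P*=0.00151), with 21.6, 12.3, 10.4 and 10.4 CPM across WT and 3.83, 3.55, 4.59 and 4.38 CPM across KO libraries at P21. The adaptor *Sh3kbp1* went from -0.25 to -1.38 and the lysosomal peptide transporter *Abcb9* from 0.13 to -0.92. The count was 32 without KO replicate 2, 37 without WT replicate 1, 45 without KO replicate 1 and 52 without KO replicate 4. It was 167 with library totals.

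**Figure D5:**
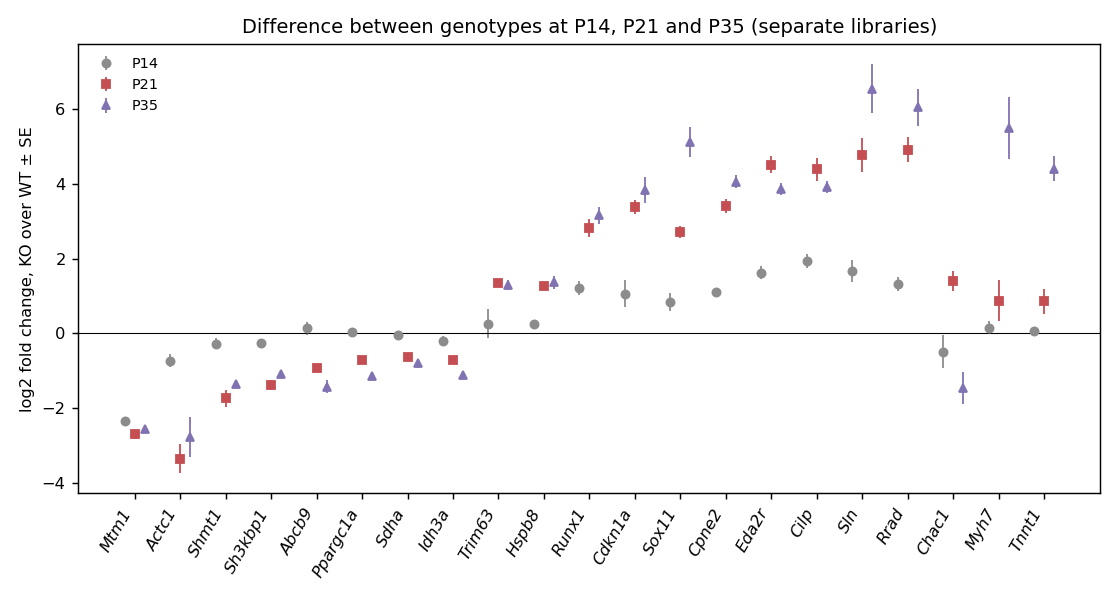
Log2 fold change of KO over WT (± SE) for 21 genes at P14 (grey circles), P21 (red squares) and P35 (purple triangles), each from its own 8 libraries. *Mtm1* is alike at the 3 ages, and *Runx1* to *Rrad* lie between 0.83 and 1.92 at P14 and higher afterwards. *Chac1* is higher in KO than in WT at P21 and lower at P35. The ratios of *Myh7* and *Tnnt1* are high at P35.

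Most P21 DEGs were DEGs again at P35, in the same direction. Of 482 higher at P21, 479 were tested at P35 and 393 were DEGs higher there, 82% of them, beside 8.22% of all genes tested at both ages. Of 227, 225 were tested and 176 were DEGs lower, 78.2%, beside 7.77%. None was a DEG in the opposite direction at P35. In turn these genes were 29.7% of the genes called higher and 15% of those called lower at P35. The number shared, 569 in all, was 356 without WT replicate 1 and 371 without KO replicate 2. It was 1011 with library totals in both comparisons.

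The difference between genotypes changed from P21 to P35 for 86 genes by the interaction test (0.463%). Of these, 28 had a more positive and 58 a more negative log2 fold change at P35. DEGs at P21 were 15 of the 86, beside 4.67% of all genes tested at P21, and the P21 libraries were again shared. *Chac1* had log2 fold changes of 1.40 at P21 and -1.47 at P35 (interaction -2.88, SE 0.571, adjusted *P*=0.00706). With 1 TMM scaling of all 32 libraries, *Chac1* averaged 27.8, 5.42 and 23 CPM in WT at P14, P21 and P35. The KO means were 19.8, 14.2 and 8.14 CPM, so the change of sign went with a low WT level at P21. By the interaction test 7 of the 12 slow fibre genes had a more positive log2 fold change at P35 than at P21. With 1 library of P21 left out it was 6 to 7. It was 6 without WT replicate 4, the library that decided whether slow genes were called at P21. *Myh7* went from 0.88 to 5.49 (interaction adjusted *P*=0.00171) and slow troponin T, *Tnnt1*, from 0.85 to 4.40 (interaction adjusted *P*=1.17e-05). On the scale of all 32 libraries, WT *Myh7* was at 204.6 ± 206.6 CPM at P21 and 10.2 ± 12.8 CPM at P35. In KO it was at 371.8 ± 82 and 450.3 ± 195.9 CPM, so its wider ratio at P35 went mainly with a lower WT level. *Tac4*, a tachykinin, was at 0.33 ± 0.0625 CPM in WT and 0.33 ± 0.125 CPM in KO at P21 and had a log2 fold change of 4.96 at P35. *Sox11* rose further, from 2.71 to 5.12. *Lrtm2* and *Cacna2d4*, whose genes overlap on opposite strands, had P35 log2 fold changes of -3.91 and -3.97, against 0.85 and -1.12 at P21. In a fit of only the 16 libraries of both ages 9 genes were called. The count was 37 without KO replicate 1, 55 without WT replicate 2, 55 without WT replicate 3 and 57 without WT replicate 4.

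WT muscle matures between P14 and P35, and this was measured on WT libraries of those ages alone. Of genes tested there and at P21, 7.54% rose and 7.99% fell in WT from P14 to P35. Of the DEGs lower in KO at P21, 92 of 227 (40.5%) rose in WT over that time and 20 (8.81%) fell. Of the DEGs higher in KO, 27 of 454 (5.95%) rose in WT and 86 (18.9%) fell. *Nt5c1a* rose by 1.72 on the log2 scale in WT from P14 to P35 (adjusted *P*=0.000202), *Ckmt2* by 1.78 (adjusted *P*=0.000554) and *Perm1* by 0.99 (adjusted *P*=0.000449), all DEGs lower in KO at P21. Among DEGs higher in KO, *Meg3* (-3.51), *Sox11* (-3.03), *Sln* (-2.09) and *Rrad* (-1.88) had negative log2 differences in WT over that time and passed the test. *Mtm1* in WT had a log2 difference of 0.10 between those ages (adjusted *P*=0.335). In total 225 DEGs of P21 changed in WT. The number was 131 without WT replicate 1 and 138 without KO replicate 2 at P21.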

How the data were processed

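RNA of TA muscle was sequenced in 8 libraries of P21 (n=4 WT and n=4 *Mtm1* KO) out of 32 over 4 ages. The authors deposited expected counts per gene for all libraries, made according to the submitters' processing notes with STAR 2.6.1 and RSEM 1.2.22 on GRCm38. The methods also name HTSeq, and strand use in counting is not given in the sources used here. Of the values 4.26% were not whole, and expected counts were rounded. Gene names were taken from the table, and 54809 of 54838 genes matched GENCODE M21. The number of columns not used was 0.

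Counts were filtered with edgeR's filterByExpr, scaled by TMM and tested with edgeR 4.0.16 (quasi-likelihood, R 4.3.3) on the 8 P21 libraries with genotype as the only term, and P14 and P35 likewise. Interactions of genotype with age were tested in 1 fit of all 32 libraries. The thresholds for DEGs were a Benjamini-Hochberg adjusted *P*-value of 0.01 and a log2 fold change of 0.585 in either direction. Alternatives were DESeq2 1.42.0, RLE size factors, library totals, other filters and thresholds, all 32 libraries, a replicate block and each library left out. The fit was tested on simulated data. Replicates differed by more than sampling noise (chi-square per degree of freedom 39.3 to 109.7). Deviations of WT and KO libraries of the same number correlated at 0.29, -0.058, 0.086 and 0.15. The mean correlations of these WT libraries with KO libraries of other numbers were -0.088, 0.017, -0.035 and -0.053. As 1 of 4 numbers correlated best with itself, the numbers were not taken as pairs.

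The comparison, gene lists and tests were chosen with earlier results of these data known, and the list of proteins named in the study was drawn from the study. Named genes were *Mtm1*, the 12 most raised and the 12 most lowered DEGs without overlap between genotypes (clone and predicted names left out), the 12 smallest adjusted *P*-values, 3 DEGs of each list or 2 abundant members of a list without any, the study's proteins, 4 genes in each direction of each interaction and the 4 DEGs nearest *Mtm1*. Other list members named were chosen for their known roles after their values were seen. A few genes that met these rules are not reported here. Promoter windows were those of RefSeq for GRCm38.p6.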

Additional observations from a re-analysis of the deposited data

Results flagged for a closer look

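In 22 of 272 groups of 4 libraries (8.09%), over the named genes, 1 library lay far from the other 3, by Dixon's test of the gap against the group's range. Chance gives about 1 in 20. The library was WT replicate 1 for 5 of these groups, WT replicate 3 for 4, WT replicate 4 for 4, KO replicate 1 for 4 and KO replicate 2 for 3.

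WT replicate 1 was highest for *Igf2* (504 CPM), *C130080G10Rik* (118 CPM), *Prr32* (0.665 CPM) and *Sprr1a* (0.0202 CPM, a single count) and lowest for *Micu2* (34 CPM). WT replicate 2 was highest for *Mrpl22* (16.2 CPM). WT replicate 3 was highest for *Igfbp5* (918 CPM) and *Hspb7* (584 CPM) and lowest for *Rps2* (627 CPM) and *Rtn2* (441 CPM). WT replicate 4 was highest for *Myh7* (427 CPM), the library that decided whether slow fibre genes were called, and for *Gsta1* (0.0596 CPM), and lowest for *Perm1* (269 CPM) and *Krt8* (0.0199 CPM). KO replicate 1 was highest for *mt-Nd5* (7452 CPM) and lowest for *Actc1* (258 CPM), *Pgam2* (1126 CPM) and *Prr32* (1.15 CPM). KO replicate 2 was highest for *Casq2* (219 CPM), *Lmna* (205 CPM) and *Cycs* (562 CPM), and KO replicate 3 for *Igfbp5* (1073 CPM).

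The difference between genotypes changed with age for 79 genes between P14 and P21 and for 86 between P21 and P35 by edgeR's interaction test. From P14 to P21 the log2 fold change of KO over WT moved by 3.59 for *Rrad*, 3.9 for *Gm4813*, 3.9 for *Dhx58os* and 3.4 for *AC168050.1*, the last 3 with at most 3 counts in each WT library at P21. It moved by -4.26 for *C130080G10Rik*, -1.48 for *Shmt1*, -1.15 for *Sh3kbp1* and -1.07 for *Abcb9*. From P21 to P35 it moved by 4.97 for *Tac4*, 4.6 for *Myh7*, 3.54 for *Tnnt1* and 3.44 for *Gm34302*. It moved by -4.78 for *Lrtm2*, -2.88 for *Chac1*, -2.86 for *Cacna2d4* and -2.58 for *Gm5420*. *Rrad* stood at 1.31 at P14 and *Tnnt1* at 0.055. *Gm4813*, at 1.28, 1.64, 0.748 and 1.25 CPM in KO at P21, was at least 20.2-fold higher than a floor of 3 counts, and *AC168050.1* at least 7.27-fold, with its call lost without WT replicate 1.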

How the results depend on the processing

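The 709 DEGs at P21 became 1157 with library totals (1052 higher, 105 lower), 1213 at an adjusted *P*-value under 0.05 (775 higher, 438 lower), and 1234 with no fold threshold (514 lower). DESeq2 called 411 lower. With 1 library left out there were 417 to 626, of which 304 to 425 were higher and 113 to 225 lower, and 405 to 524 of the 709 were kept. The 79 genes that changed from P14 to P21 became 167 with library totals, 263 at an adjusted *P*-value under 0.05 and 32 to 100 with 1 library left out. The 86 that changed from P21 to P35 became 9 in the 16 libraries of both ages, 406 at an adjusted *P*-value under 0.05 and 37 to 99 with 1 library left out. The 569 DEGs shared with P35 became 1011 with library totals and 356 to 512 with 1 library left out. The 225 that changed in maturing WT muscle became 353 with library totals, 373 with DESeq2 and 131 to 219 with 1 library left out. The cause of these changes was not tested, except that leaving out a library lowers the sample number.

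The replicate numbers were not taken as pairs, and whether libraries of the same number shared a source was not tested. A fit with the replicate number as a block gave 634 DEGs, 411 higher and 223 lower, of which 550 were among the 709. Of the 97 named DEGs, 18 were not called with the block. With the block the interactions gave 77 and 156 genes. Only 1 of 4 numbers correlated best with itself.

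Of 97 named DEGs 59 were called in all 8 fits that left out 1 library, and no named gene past the threshold changed sign under an alternative run. Folds of genes below 1 CPM in WT rest on few counts, as for 106 of the DEGs higher in KO and 15 of those lower.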

Other observations

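Gene families outside the lists above also held DEGs, and they were chosen after the values were seen, so their counts are descriptions. Of 9 annexins, calcium-dependent membrane-binding proteins, 3 were DEGs higher in KO beside 3.18% of all genes. *Anxa4* was at 8.58 ± 1.3 CPM in WT and 30.2 ± 5.47 CPM in KO (mean ± SD, n=4; log2 fold change 1.81, SE 0.15, adjusted *P*=0.000162 in edgeR's quasi-likelihood test), *Anxa7* had a log2 fold change of 1.66 and *Anxa8* one of 4.05. *Anxa2*, at 53 ± 13.1 and 98.8 ± 25.7 CPM, missed the threshold (adjusted *P*=0.0158). Of 9 S100A calcium-binding proteins, some of which bind annexins, 3 were DEGs higher in KO. *S100a4* was at 3.7 ± 1.44 CPM in WT and 31.5 ± 10.8 CPM in KO (log2 fold change 3.09), *S100a13* had 1.83 and *S100a6* 0.88. Clade B serpins, intracellular protease inhibitors, had 3 DEGs among 6. The most abundant, *Serpinb6a*, was at 65.4 ± 15 CPM in WT and 289 ± 63.8 CPM in KO (log2 fold change 2.15).

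Receptors of the TNF family other than *Eda2r* gave 3 DEGs of 16. *Tnfrsf23* (log2 fold change 2.24) and *Tnfrsf22* (1.57) are close relatives whose reads could be shared, and *Tnfrsf18* had 3.0. *Tnfrsf12a*, the TWEAK receptor, spread widely, at 27.7 ± 13.5 CPM in WT and 67.7 ± 41 CPM in KO (adjusted *P*=0.0804). Of 10 NF-kB subunits and inhibitors, all with log2 fold changes above 0, *Nfkb2* (1.68, adjusted *P*=0.000144), *Relb* (1.09) and *Nfkbie* (1.17) were DEGs. *Nfkb2* and *Relb* encode the noncanonical pair of subunits. Of 22 dual specificity phosphatases, which act on MAP kinases, *Dusp2* (1.48), *Dusp4* (1.81), *Dusp5* (1.45) and *Dusp14* (1.04) were DEGs higher in KO. The kinases *Sbk2* (2.42) and *Sbk3* (2.61) were DEGs, and *Sbk1* had 0.056 (adjusted *P*=0.712). The 6 MHC class II genes tested had a median log2 fold change of 1.03, and none passed the adjusted *P*-value, with *H2-Aa* at 6.71 ± 2.06 CPM in WT and 13.7 ± 2.95 CPM in KO (adjusted *P*=0.0139). Of 39 mitochondrial carriers, *Slc25a12*, the aspartate-glutamate carrier of muscle, was lower (720.3 ± 48.5 and 475 ± 14.6 CPM, log2 fold change -0.60), and *Slc25a24*, a calcium-regulated carrier, was higher (1.15).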
